A study of Mus musculus with 18 samples.

Results

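The 10 genes described here encode enzymes of serine synthesis (Phgdh, Psat1, Psph), of the folate one-carbon cycle (Shmt1, Shmt2, Mthfd2, Mthfd1l, Aldh1l2) and of transsulfuration (Cth, Cbs). They were taken as a fixed list of gene names, 10 of 21887 protein-coding genes with a position on mm10. The list was chosen with earlier results of these data known, so its counts beside all genes are descriptions without a test. Peaks of chromatin immunoprecipitation with sequencing (ChIP-seq) were read in each gene body and 20 kb on either side. A peak is an interval in which the authors' caller found more immunoprecipitated DNA than in the local background, and its fold is that enrichment at the highest summit. The cells were primary immature neurons from mouse embryos at embryonic day 14, grown for 2 days in medium with fetal bovine and horse serum. Neurons were given 10 mM 2-deoxyglucose (2-DG), a glucose analogue that blocks glycolysis, for 6 h, or were left untreated (Control). Of 18 samples, 10 had a peak list, and 4 2-DG lists and 4 Control lists had labels that gave 1 treatment.

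ATF4 is the transcription factor that the integrated stress response raises through phosphorylation of eIF2, and it is known as an activator of amino acid synthesis and transport genes. Serine is made from the glycolytic intermediate 3-phosphoglycerate, and its conversion to glycine loads a carbon unit onto folate. Mitochondria and cytosol each hold a set of folate enzymes, which exchange carbon mainly as serine, glycine and formate. Transsulfuration passes the sulfur of homocysteine to cysteine, a precursor of glutathione.

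The lists held 15240, 7369, 6371 and 5856 peaks in 2-DG replicates 1 to 4 and 3461, 3784, 8202 and 6811 in Control replicates 1 to 4. No list carries read counts, so depth is unknown and a gene without a peak is only one where nothing was called. Control samples have no antibody in their labels and 2-DG samples have an ATF4 antibody, whereas the series design names that antibody for both. By the labels, treatment and antibody therefore cannot be told apart. Peak lists measure no expression, and the neuronal label could not be checked against marker genes. The design states 3 independent replicates, while 4 lists per treatment are compared, and which lists came from separate cultures is not stated. A p-value here depends only on how many of these lists hold a peak. Differences among the lists may be technical.

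After 2-DG, 7 of the 10 genes had a peak in all 4 lists. These were Phgdh, Psat1, Psph, Shmt2, Mthfd2, Mthfd1l and Aldh1l2. Over all protein-coding genes, 5.95% had a peak in all 4 2-DG lists within the same window, and 12% in at least 3, where the 10 enzymes again gave 7. The 2-DG lists held 9, 8, 7 and 7 of the 10 genes and the Control lists held 3, 2, 2 and 1. The means were 7.75 ± 0.957 genes per 2-DG list and 2.0 ± 0.816 per Control list (SD, n = 4 each), and the groups did not overlap. Over all genes there were 4589 ± 1748 with a peak per 2-DG list and 3024 ± 1155 per Control list (SD, n = 4 each). More 2-DG than Control lists had a peak at 9 of the 10 genes, against 29.3% of all genes. At least 1 Control peak was found at 4 of the 10, against 35.1% of all genes, which is near the background. Phgdh alone had a peak in at least 3 Control lists, 1 of 10 genes against 4.83% of all genes, and that peak lay outside the gene. Counted in the gene body alone, the 2-DG lists held 8, 8, 7 and 7 of the genes and the Control lists held 3, 1, 0 and 0. In the gene body 6.2% of all genes had a peak in at least 3 2-DG lists and 2.45% in at least 3 Control lists.

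**Figure D1:**
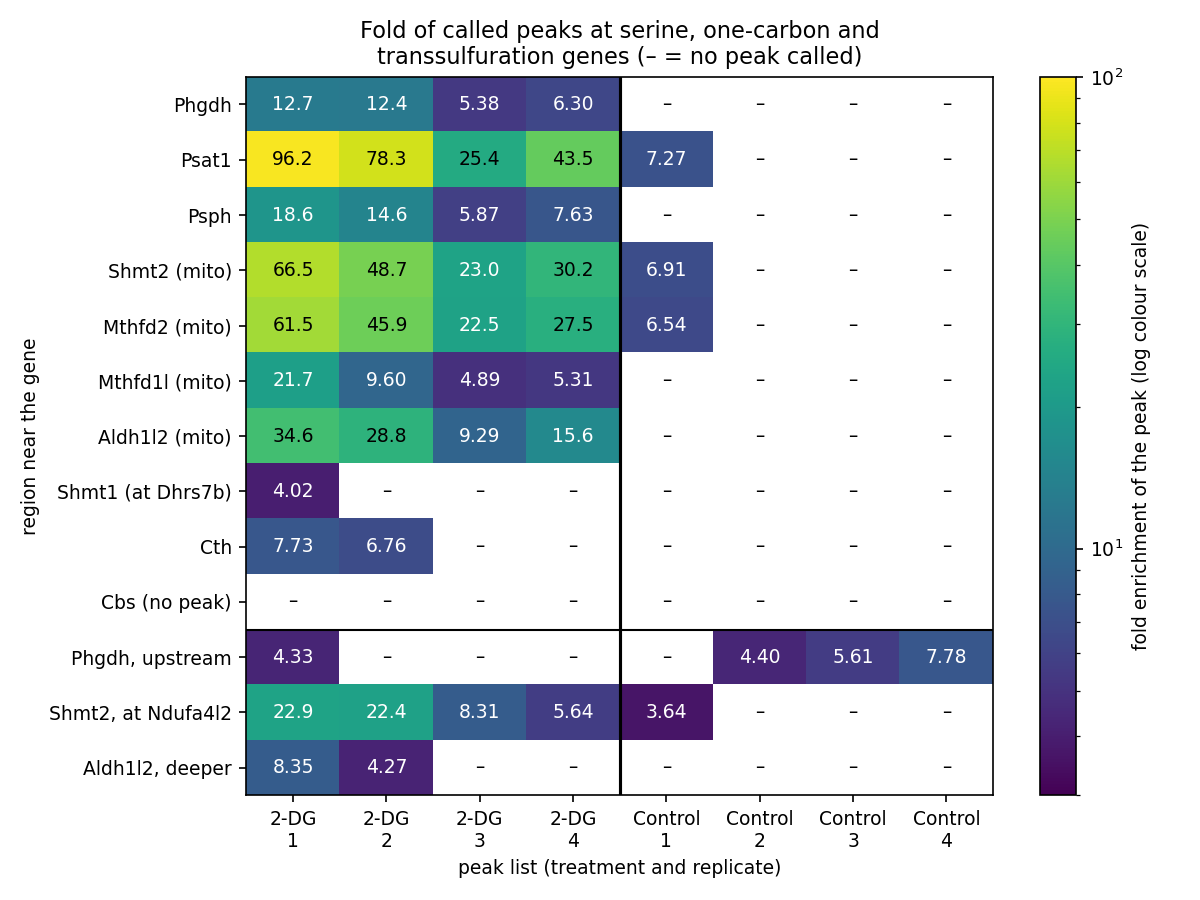
Fold enrichment of the highest peak in each region near the 10 genes (rows), for the 4 2-DG lists and the 4 Control lists (columns), on a logarithmic colour scale. Psat1, Shmt2 and Mthfd2 are the sole main regions with a Control peak, all in Control replicate 1, and the upstream Phgdh region is called in 3 Control lists and 1 2-DG list.

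Psat1, which encodes the aminotransferase of the second step of serine synthesis, carried the highest fold of the 10 genes in every 2-DG list. Its region, chr19:15924650-15926022 (mm10), crosses the annotated start of the gene at 15925059. A further annotated start lies at 15924622. The fold was 96.2, 78.3, 25.4 and 43.5 in 2-DG replicates 1 to 4, against 7.27 in Control replicate 1 and no peak in the other Control lists. All 2-DG values were thus above the single Control value. By fold the peak ranked 15 of 15240, 19 of 7369, 72 of 6371 and 31 of 5856 in the 2-DG lists and 293 of 3461 in Control replicate 1. The 5 summits fell within 13 bp of each other, 88 to 101 bp upstream of the start at 15925059, the nearer of the annotated starts. Control replicate 2 had a separate weak peak, with a fold of 4.03, at the far end of the gene.

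The promoter of Psat1 is shown because all Psat1 summits of the 2-DG lists lie in it. It spans chr19:15925010-15925309 on the minus strand, from 250 bases before to 50 after the annotated start at 15925059 (RefSeq, GRCm38.p6). The 14 capitals mark the bases from the lowest to the highest 2-DG summit.
Psat1: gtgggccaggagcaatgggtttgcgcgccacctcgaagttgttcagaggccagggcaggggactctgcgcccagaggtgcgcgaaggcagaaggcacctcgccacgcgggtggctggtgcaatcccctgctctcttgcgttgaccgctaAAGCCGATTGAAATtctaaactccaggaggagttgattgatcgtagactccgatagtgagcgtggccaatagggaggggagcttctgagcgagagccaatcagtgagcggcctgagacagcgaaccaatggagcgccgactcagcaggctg
The window holds no match to TGATGNAA, a common form of the composite element read by ATF4 with C/EBP partners, on either strand.

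Phgdh encodes the dehydrogenase that commits 3-phosphoglycerate to serine synthesis. Its main region, chr3:98338929-98339530, lay inside the gene and had a fold of 12.7, 12.4, 5.38 and 6.30 in 2-DG replicates 1 to 4 and no peak in any Control list. The summits were 655 to 752 bp downstream of the annotated start. A second region, chr3:98344310-98344641, went the other way. It lay 4409 to 4610 bp upstream of the start and was called in 3 of 4 Control lists, with a fold of 4.33 in 2-DG replicate 1 against 4.40, 5.61 and 7.78 in Control replicates 2 to 4. Through this upstream region the window of 20 kb gives Phgdh a peak in 3 Control lists, whereas its gene body gives 0. The main region inside the gene gives the 4 2-DG lists in both counts.

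Psph encodes the phosphatase that completes serine synthesis. Psph was called in every 2-DG list and in no Control list, with a fold of 18.6, 14.6, 5.87 and 7.63 in 2-DG replicates 1 to 4. The region, chr5:129778395-129779064, lay deep in the gene, with summits 8432 to 8480 bp downstream of the annotated start.

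For the serine hydroxymethyltransferases, which convert serine to glycine, peaks were called at the mitochondrial enzyme gene and not inside the cytosolic one. Shmt2, the mitochondrial enzyme gene, had a fold of 66.5, 48.7, 23.0 and 30.2 in 2-DG replicates 1 to 4 and 6.91 in Control replicate 1, with no peak in the other Control lists. Every 2-DG value was above the Control value. The region, chr10:127521548-127522430, had summits 509 to 530 bp downstream of the annotated start. Shmt1, the cytosolic enzyme gene, had no peak inside the gene in any of the 8 lists. A single weak peak in its window, with a fold of 4.02 in 2-DG replicate 1, lay 19389 bp outside Shmt1 and inside Dhrs7b.

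A further recurrent region in the Shmt2 window, chr10:127511491-127513055, lay inside the neighbouring gene Ndufa4l2. Its fold was 22.9, 22.4, 8.31 and 5.64 in 2-DG replicates 1 to 4 and 3.64 in Control replicate 1. Each 2-DG value was again above the single Control value. The Control summit, at 127511678, lay apart from the 2-DG summits at 127512117 to 127512208, so these values may not describe the same site. Over all 35717 merged regions of the 8 lists, 3.46% were called in every 2-DG list, and 1.72% in every 2-DG list but no Control list.

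The mitochondrial folate genes were called in every 2-DG list. Mthfd2 encodes the dehydrogenase and cyclohydrolase that oxidises the folate-bound carbon, and its region was chr6:83316762-83317669. The summits of the 2-DG lists lay 429 to 477 bp downstream of the annotated start at 83317604, which itself lies inside a gene body that the table extends to 83326011. The fold of Mthfd2 was 61.5, 45.9, 22.5 and 27.5 in 2-DG replicates 1 to 4 and 6.54 in Control replicate 1, with no peak there in the other Control lists. Control replicate 3 had a peak with a fold of 3.74 in the window, inside the neighbouring gene Mob1a. Mthfd1l, which encodes the synthetase that releases formate, had a fold of 21.7, 9.60, 4.89 and 5.31 in 2-DG replicates 1 to 4 and no Control peak. Its region, chr10:3973533-3974120, had summits 685 to 710 bp downstream of the annotated start, in a gene of 194190 bp.

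Aldh1l2, which encodes the mitochondrial enzyme that oxidises formyl-folate to carbon dioxide with formation of NADPH, was likewise called in every 2-DG list and in no Control list. Its main region was chr10:83533067-83533705, with a fold of 34.6, 28.8, 9.29 and 15.6 in 2-DG replicates 1 to 4. The summits lay 741 to 775 bp inside the higher-coordinate end of the gene. Weaker peaks stood beside it. A deeper region, 3426 to 3446 bp inside that end, had a fold of 8.35 and 4.27 in 2-DG replicates 1 and 2, and 3 more regions were each called in 1 2-DG list.

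The promoter windows of Shmt2 and Mthfd2 are shown because the interval of 2-DG replicate 1 reaches into both, and that of 2-DG replicate 2 into the Mthfd2 window. The other 2-DG intervals end short of them, and all summits lie farther into the gene. Capitals mark the bases covered by the widest 2-DG interval, 36 for Shmt2 (chr10:127522395-127522694, minus strand) and 115 for Mthfd2 (chr6:83317555-83317854, minus strand), both from RefSeq on GRCm38.p6.
Shmt2: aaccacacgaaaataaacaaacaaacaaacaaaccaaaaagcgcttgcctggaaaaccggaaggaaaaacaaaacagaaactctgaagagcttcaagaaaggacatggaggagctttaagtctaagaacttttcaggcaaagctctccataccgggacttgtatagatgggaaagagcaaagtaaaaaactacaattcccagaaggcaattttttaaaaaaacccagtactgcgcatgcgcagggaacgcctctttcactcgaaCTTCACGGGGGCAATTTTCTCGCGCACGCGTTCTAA
Mthfd2: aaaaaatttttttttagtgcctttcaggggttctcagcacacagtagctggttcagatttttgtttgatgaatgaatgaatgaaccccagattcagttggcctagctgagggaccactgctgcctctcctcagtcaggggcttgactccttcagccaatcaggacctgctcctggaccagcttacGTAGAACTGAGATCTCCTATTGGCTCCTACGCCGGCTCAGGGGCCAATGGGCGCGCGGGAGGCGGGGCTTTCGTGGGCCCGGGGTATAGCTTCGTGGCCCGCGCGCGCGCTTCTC
Of the 10 genes, 8 had a promoter in the RefSeq table, Aldh1l2 and Cth being the others. TGATGNAA was found in 0 of the 8 on either strand, and in 4.13% of 17492 protein-coding genes. With 1 more position freed, TGANGNAA was found in 2 of the 8, against 17.5% of all genes. These matches were TGAGGAAA in Mthfd1l, at position -190 from its annotated start, and TTCCGTCA, the opposite-strand form, in Shmt1, at position -131. A search for CCAAT, the core of the box read by NF-Y, was chosen after the sequences were seen and found it in 6 of the 8 genes and in 42.3% of all genes. A match describes the letters of these windows, and most summits lay outside them.

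The transsulfuration genes had few peaks. Cth, which encodes the enzyme that splits cystathionine to cysteine, was called in 2-DG replicates 1 and 2, with a fold of 7.73 and 6.76 and the same summit position, 1451 bp inside the higher-coordinate end of the gene (chr3:157923524-157923831). It had no peak in that region in 2-DG replicates 3 and 4 or in any Control list. Cbs, which encodes the enzyme that forms cystathionine, had no peak in its gene or within 20 kb in any of the 8 lists. Lack of a called peak was not rare, since 44.9% of all genes had none in this window in the 8 lists. In the gene body alone Shmt1 and Cbs had none, 2 of the 10 genes, against 71.7% of all genes.

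The 7 genes called in all 4 2-DG lists kept nearly the same order of fold from list to list. In each 2-DG list Psat1 was highest, followed by Shmt2, Mthfd2 and Aldh1l2. Psph came before Phgdh in all 4 lists, and Mthfd1l was the one gene to change its place among them, ahead of both in 2-DG replicate 1 and behind both in the others. Of 21 pairs among the 7 genes, 19 had the same order in all 4 lists. Control replicate 1 had the same leading genes in the same order, with Psat1, Shmt2 and Mthfd2 within the top 8.47%, 9.48% and 10.8% of that list. Within the 2-DG lists Psat1 lay within the top 0.0984%, 0.258%, 1.13% and 0.529%. At the lower end Mthfd1l lay within the top 2.27%, 11.5%, 42.0% and 33.1%, so its place in a list varied most. The values of Shmt2 and Mthfd2 were close in each list, at 23.0 and 22.5 in 2-DG replicate 3, and no error within a list is given that would separate them.

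**Figure D2:**
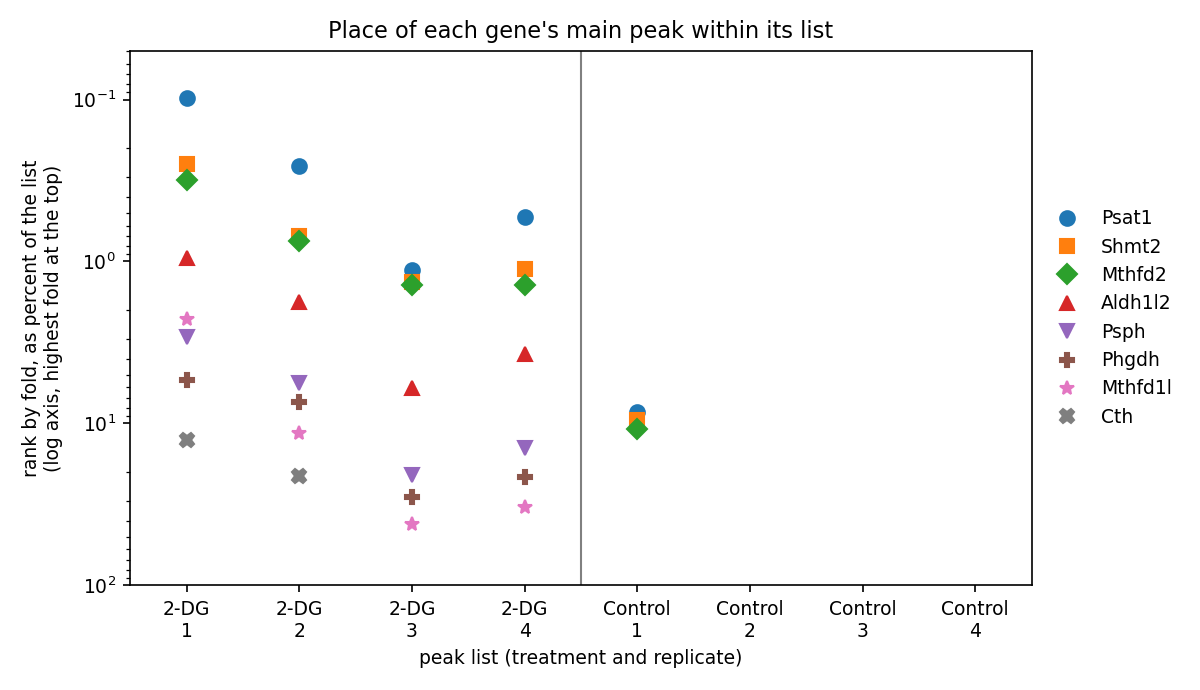
Rank by fold of each gene's main peak as a percent of its list (log axis, highest fold at the top) in the 4 2-DG lists and the 4 Control lists; no point means that no peak was called. Psat1, Shmt2, Mthfd2 and Aldh1l2 keep 1 order in the 4 2-DG lists, and the leading 3 recur in Control replicate 1.

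Most main peaks sat just inside the start of the gene. Of 6 genes with an annotated start and a peak in at least 3 2-DG lists, 5 had their strongest 2-DG summit within 1000 bp of the start, and 4 of these lay downstream of it. Psph was the exception. The same measure over 2092 other genes with a recurrent 2-DG peak put 9.42% within 1000 bp and 3.3% within 1000 bp downstream. This measure was chosen after the positions were seen and describes the genes without a test. Summit positions repeated closely across lists, with a span over the 2-DG lists of 13 bp for Psat1, 21 bp for Shmt2, 25 bp for Mthfd1l, 34 bp for Aldh1l2, 48 bp for Mthfd2 and Psph, and 97 bp for Phgdh.

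**Figure D3:**
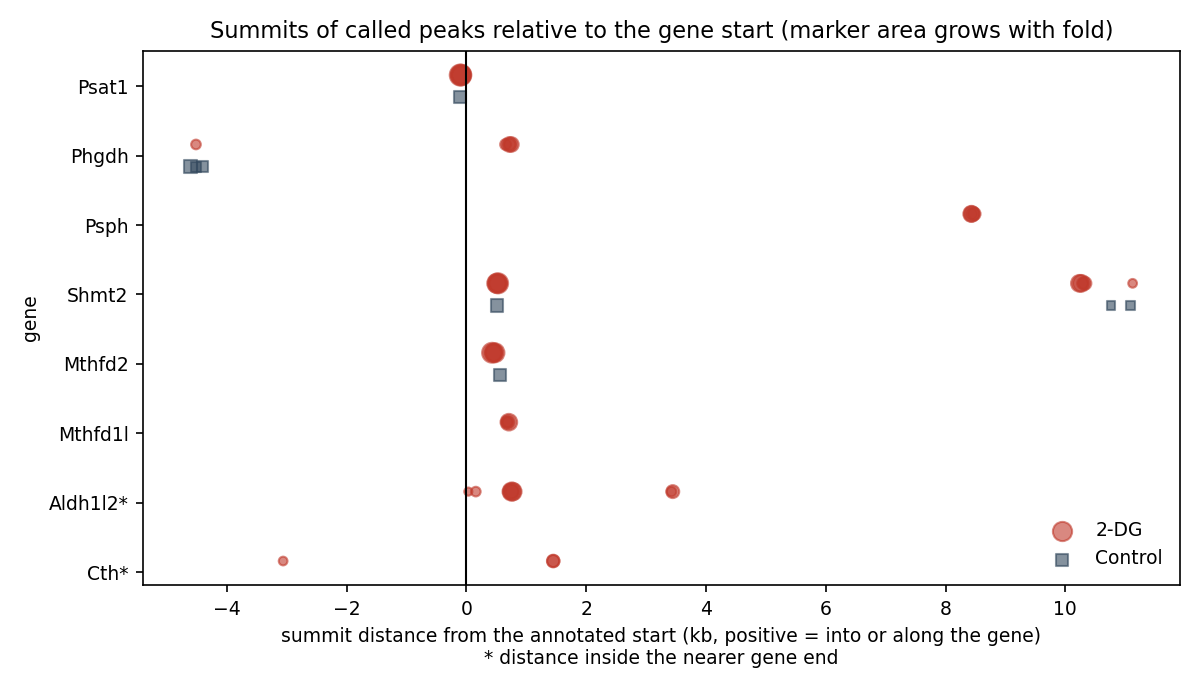
Distance of called summits from the nearest annotated start of its gene in kb (for Aldh1l2 and Cth, inside the nearer gene end), with 2-DG summits above Control summits in each row and marker area growing with fold. Main 2-DG summits lie between the start and 1 kb downstream for Phgdh, Shmt2, Mthfd2 and Mthfd1l, just upstream for Psat1 and deeper for Psph. Shmt2 summits 10236 to 11124 bp downstream of its start lie outside that gene, at the neighbouring gene Ndufa4l2. The 4 weak summits outside the drawn range and the single one in the Shmt1 window are not drawn.

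By compartment, all 4 mitochondrial enzyme genes (Shmt2, Mthfd2, Mthfd1l, Aldh1l2) and 3 of 6 cytosolic ones (Phgdh, Psat1, Psph) had a peak in at least 3 2-DG lists. In Control lists the counts were 0 of 4 and 1 of 6. The 3 cytosolic genes without a recurrent peak were Shmt1, Cth and Cbs. Cytosolic counterparts of the mitochondrial folate enzymes showed no such pattern either. Mthfd1, the cytosolic trifunctional folate enzyme gene, was called in no 2-DG list and in Control replicates 2 and 3 (fold 4.76 and 5.15), at least 14092 bp outside the gene and nearer to Tex21. Aldh1l1, the cytosolic partner of Aldh1l2, had a fold of 4.27 and 5.38 in 2-DG replicates 2 and 3, against 3.66 and 7.42 in Control replicates 2 and 4. These Aldh1l1 values are the highest in the window of each list and come from different sites, with summits from 90552606 to 90578939. Mthfd2l, a mitochondrial relative of Mthfd2, was called in all 2-DG lists and 2 Control lists at low fold, from 3.56 to 4.95 in the 2-DG lists and from 3.54 to 5.61 in the Control lists. The ranges of Mthfd2l overlapped, and its values also come from more than 1 site, with summits from 91003819 to 91019955. With so few genes, no test of compartment was made.

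Recurrent 2-DG peaks were also found among other genes of these pathways. Of 59 genes in the 4 neighbouring lists, 14 had a peak in at least 3 2-DG lists and 2 in at least 3 Control lists. Serine and glycine handling had 5 of 14 genes after 2-DG and 0 of 14 in Control, and cysteine, hydrogen sulfide and glutathione genes had 5 of 15 and 1 of 15. Other folate genes had 2 of 20 and 0 of 20, and the methionine cycle had 2 of 10 and 1 of 10. Against 12% of all genes after 2-DG, the folate count is near the background, and so is the methionine cycle count with so few genes. In the gene body the methionine cycle had 0 of 10 after 2-DG. The median gene of the 10 enzymes was called in 4 2-DG lists and 0 Control lists, whereas over all genes both medians were 0.

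Among these genes the highest within-list ranks belonged to Chac1, a glutathione-degrading enzyme gene, with a fold of 142, 128, 69.0 and 66.7 in 2-DG replicates 1 to 4 and of 13.8 and 4.68 in Control replicates 1 and 3. The Chac1 summit of Control replicate 3, at 119349743, lay apart from the others, at 119351018 to 119351071. By mean percentile of fold within the 2-DG lists, the subunits of the cystine transporter came next. Slc7a11 had a fold of 87.8, 72.2, 26.9 and 27.9 in 2-DG replicates 1 to 4, against 3.64 in Control replicate 1. Slc3a2 had 67.7, 55.5, 19.6 and 24.6 in 2-DG replicates 1 to 4, against 4.00 in Control replicate 1. Both summits lay inside the gene. Slc1a4, a neutral amino acid and serine transporter gene, had a fold of 41.4, 33.8, 13.2 and 14.6 in 2-DG replicates 1 to 4, against 7.27 in Control replicate 1. Slc38a1 and Slc6a9, genes of a glutamine and a glycine transporter, and Ahcyl1, a relative of the adenosylhomocysteinase gene, were called in every 2-DG list and no Control list. The peaks of Slc38a1 and Slc6a9 lay in the gene, and those of Ahcyl1 lay outside it, 6714 bp away in 2-DG replicate 1. Slc38a2, another neutral amino acid transporter gene, and Got1, an aspartate aminotransferase gene, were called in 4 of 4 and 1 of 4. The single Control peak of each lay outside the gene, away from the 2-DG summits. Gldc, which encodes the decarboxylase of glycine cleavage, was called in 3 of 4 and 0 of 4, with the peak of 2-DG replicate 4 outside the gene. At Ahcyl2 a peak was called in 8 of 8 lists, with a fold of 11.1 to 35.7 in the 2-DG lists and 7.27 to 36.5 in the Control lists, at a summit outside the gene and nearer to Smo.

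**Figure D4:**
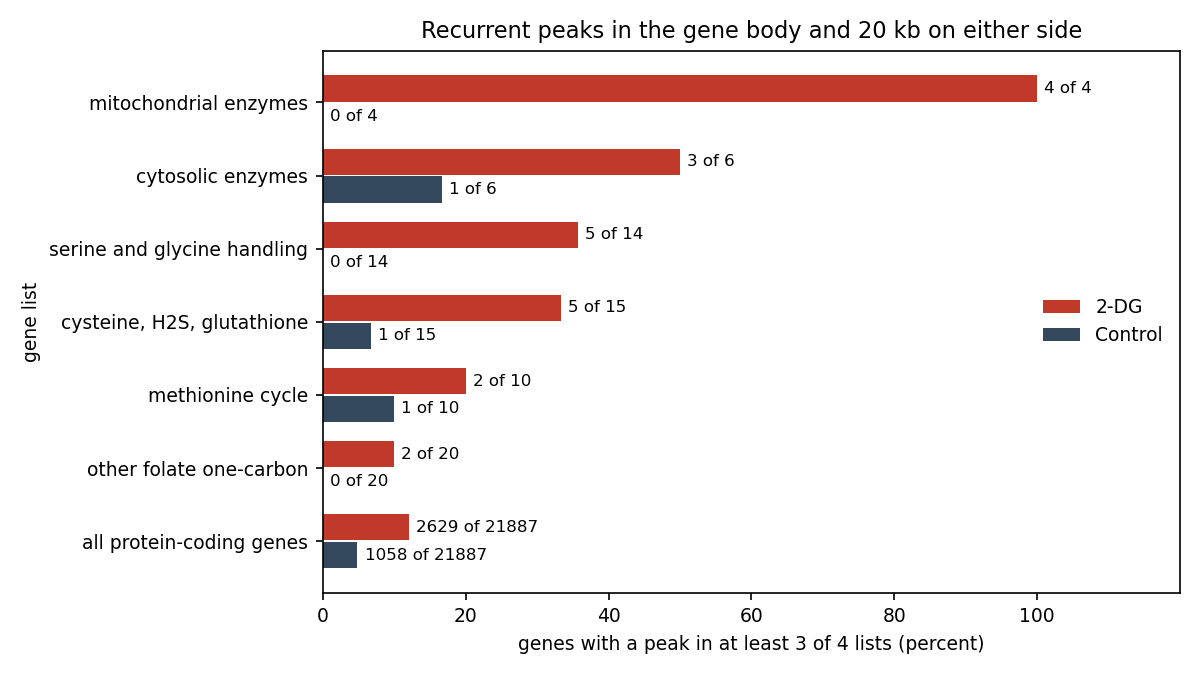
Percent of genes in each list with a peak in at least 3 of 4 2-DG lists (upper bar) or at least 3 of 4 Control lists (lower bar) in the gene body and 20 kb on either side, with counts beside the bars. Mitochondrial enzymes reach 4 of 4 and cytosolic enzymes 3 of 6 in the 2-DG lists, against 2629 of 21887 protein-coding genes.

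No single gene passed a test across the genome, and none could unless most genes shared the smallest possible p. The adjusted test therefore cannot single out a gene. A gene called in all 4 2-DG lists but no Control list, as Psph, Mthfd1l and Aldh1l2 were in the window of 20 kb, has a two-sided Fisher's exact p of 0.0286, and 4 lists per treatment can give none smaller. Of all genes, 1.51% met that pattern, against 3 of the 10 enzymes, and in the gene body alone 0.882% met it, against 4 of the 10 (Phgdh in addition). After Benjamini-Hochberg adjustment over 21887 genes every gene had an adjusted p of 1, so 0 genes passed, while 334 (1.53%) had an unadjusted p under 0.05. Shmt2, called in 4 and 1 lists, had an unadjusted Fisher's exact p of 0.143, and Psat1 and Mthfd2, called in 4 and 2, had 0.429. For Psat1 and Mthfd2, 1 of the 2 Control lists held only a peak away from the main region. In the gene body alone Mthfd2 was called in 4 and 1 lists, with a Fisher's exact p of 0.143, and Psat1 still in 4 and 2. Leaving out Control replicate 1 removes every Control peak from the main regions of the 10 genes. The fold and rank of peaks in different lists were described and not tested against each other.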

How the data were processed

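The submitters' processing notes name mm10, BWA, Picard, MACS2 and DiffBind, whose versions are not given in the sources used here. Peak names in the 10 deposited lists show that each was called on 1 sample. In the authors' files every summit has a fold (ratio) over its local background. It also has -log10 values for p and for q, per the deposited files, and the deposited score is 10 times the q column without its decimals. Fold and rank of different lists are set side by side as a description, with no test. The 8 compared lists end at different limits, with a lowest -log10 q between 1.32 and 1.77. No read counts are given, so depth and precision are unknown. Rows that repeat an interval for a further summit (431 to 1807 per compared list) were merged into 1 peak at the highest summit.

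Groups came from titles that matched the description and the treatment label. These conflict in 4 samples. The 2 of these that have lists entered no group except as an alternative. Replicate numbers follow sample order and pair nothing. The design states 3 independent replicates, while 4 lists per treatment are compared. The 8 other samples are inputs by title and were not used here.

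RefSeq on GRCm38.p6 (mm10) supplied the positions of genes, and its promoter table the annotated starts and strands. All 10 genes and all 59 neighbours matched. Exons were not analysed here. Overlap meant at least 1 bp. Presence per list was tested for all genes with two-sided Fisher's exact tests and Benjamini-Hochberg adjustment. Named genes were the 10 enzymes and up to 12 genes of the other lists called in 3 or more of the 4 lists of either treatment, ordered by mean within-list percentile of fold in the 2-DG lists. Of these, 1 gene is not reported here. Mthfd1, Aldh1l1 and Mthfd2l were named after their values were seen. The members and gene lists were chosen with earlier results of these data known.

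Alternatives were windows of the gene body alone, with 5 or 50 kb on either side, or 2 kb around gene ends, minimum -log10 q values of 2 or 5, a minimum fold of 5, the 3461 top peaks of each list, other overlap rules, leaving out each list, and adding the conflicting lists. Code ran in Python 3.11.15 with NumPy 2.4.6, pandas 2.3.3 and SciPy 1.17.1 and was tested on simulated data.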

Additional observations from a re-analysis of the deposited data

Results flagged for a closer look

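In 18 sets of values, each over the 4 lists of a treatment, 1 value stood apart, and a chance rate of 1 in 20 would give 0.9 of them. The Psph summit of 2-DG replicate 4, at 129778773 on chromosome 5, lay 48 bp from those of 2-DG replicates 1 and 3, which were identical at 129778821.

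A list outside the comparison carried peaks in the gene body at 5 of the 10 enzymes, above the highest Control list, Control replicate 1, with 3. Over all genes it had a peak in the window of 20 kb at 20.4%, against 8.85% in Control replicate 1 and 19.8% in Control replicate 3, which held 0 of the enzymes in the gene body. The part of list length in the count was not tested. Its title says 2-DG and its description says control. The genes, in order of fold, were Psat1, Shmt2, Mthfd2, Aldh1l2 and Psph, and Psat1 is counted there through an interval that reaches into the gene.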

How the results depend on the processing

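The number of the 10 enzymes called in at least 3 of 4 2-DG lists was 7 in the main setting and ran from 5 (gene ends) to 8 (50 kb) over 20 alternatives. The mitochondrial share exceeded the cytosolic one by 33.3 to 50 percentage points in all of them. Enzymes per list, 5.75 more after 2-DG than in Control, became 4.5 with 2 kb around gene ends and 3.6 with the conflicting lists added by description. Enzymes called in 4 2-DG and 0 Control lists (3) became 1 at -log10 q of at least 5 and 0 with conflicting lists by description. The single enzyme called in at least 3 Control lists, Phgdh, became 0 in the gene body, at gene ends, under minimum values of 5 for -log10 q or fold and with conflicting lists by either label. With 2 kb around gene ends the Mthfd2 difference turned to -25 percentage points of lists and that of Psph was 0. The main summits of both lie farther than that from either end of the annotated gene. For Mthfd2 the peak of Control replicate 3 in Mob1a, 1242 bp outside the gene, was still counted. Shmt1 (25 points) became 0 with the gene body, with 5 kb, at gene ends, at -log10 q or fold of at least 5 and with equal list lengths. Cbs (0 points) became 50 with 50 kb, 20 with conflicting lists by title and -20 by description. Over all genes, 2629 with a recurrent 2-DG peak became 1358, 1713, 4676 and 396 with the gene body, 5 kb, 50 kb and gene ends, 1101 and 1189 at -log10 q and fold of at least 5, 1363 with equal list lengths and 1712 by description. The 330 called in 4 and 0 became 193 (gene body), 124 (gene ends) and 4 (by description). TGANGNAA in place of TGATGNAA gave 2 enzymes. Adding the conflicting lists by either label gives 5 lists per treatment, so a recurrent peak then has to be in at least 4. A gene called in all 2-DG and no Control lists then has to be called in 5 and 0. Both rules are stricter by construction. Beyond these rules, the cause of the changes other than those at gene ends was not tested. Leaving out each list gave 5.33 to 6.08 more enzymes per 2-DG list, 7 enzymes called in the 2-DG lists throughout, 3 to 4 called in all 2-DG and no Control lists, 0 to 1 in the Control lists, 1352 to 2629 genes with a recurrent 2-DG peak and 335 to 564 called in all 2-DG and no Control lists. The differences ran from 0 to 33.3 points for Phgdh (0 without Control replicate 1) and for Shmt1 (0 without 2-DG replicate 1). With 3 lists of a treatment left, a recurrent peak has to be in all 3, so by construction the counts of recurrent peaks cannot rise. Counts called in all 2-DG and no Control lists cannot fall, because 1 list fewer has to meet the pattern. No paired analysis was possible because the labels give no replicate number that groups share. Unknown depth limits every absent peak.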

Other observations

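The list with 2-DG in its title but control in its description had a fold of 31.9 at Psat1, 22.9 at Shmt2, 16.0 at Mthfd2, 7.64 at Aldh1l2 and 6.60 at Psph, at ranks 52, 92, 160, 614 and 877 of 7847 peaks. It had no peak in the main regions of Phgdh, Mthfd1l and Cth. A further peak with a fold of 7.29 lay in the Ndufa4l2 region next to Shmt2. Within 20 kb it had a peak at 6 of the 10 genes, with Cbs added to these. The list with control in its title but 2-DG in its description had 1 peak near the 10 genes, with a fold of 3.56, at the far end of Psat1. No source used here states which label of these lists is right.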
